A study of Rattus norvegicus with 18 samples.

Results

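The known miRNAs of gastrocnemius muscle, a large hindlimb muscle, were compared between old calorie-restricted (CR) rats and young rats fed ad libitum (AL). The count columns of the 6 old CR libraries (library numbers 13 to 18) were set against those of the 6 young AL libraries (library numbers 19, 20, 3, 4, 5 and 6, given here as young AL 1 to 6 in that order), and known miRNAs were taken when the 12 libraries together held 10 counts or more. Of 909 entries in the deposited table, 763 were known miRNAs and 603 of these met the minimum, while 160 did not, among them 82 without a count in any of the 12 libraries. All rats were male Brown Norway rats, young AL at 6 months and old CR at 28 months of age, and each library came from 1 rat. The CR rats had received 55% of the AL intake since the age of 2 months. Another group, 6 old AL rats of 28 months, was used only beside single results. Age and diet both differ between old CR and young AL, so that their contributions to a difference cannot be told apart in this comparison.

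MiRNAs are short RNAs cut from a hairpin precursor, which can release a mature strand from each of its arms (-5p and -3p). A mature miRNA lowers the output of mRNAs that pair with its seed, the bases from position 2 to 8. Many miRNA genes lie in clusters that are read into 1 long precursor, and related genes at different places can carry the same seed. In skeletal muscle miR-1, miR-133 and miR-206 make up most of the miRNA pool and act in muscle differentiation and growth.

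The sequences on which the main results rest are those of the miR-181 family, of partners read from opposite strands of the same place, and of the leading members in each direction. They are RefSeq mature sequences (GRCr8), 5′ to 3′, with the seed in capitals. RefSeq held a sequence for 58 of the 64 called miRNAs described below. The miR-181 strands are shown because they moved differently although the 4 -5p strands share 1 seed; miR-181c-3p, the other arm of the miR-181c hairpin, has another seed.
miR-181a-5p: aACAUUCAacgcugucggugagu
miR-181b-5p: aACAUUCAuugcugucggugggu
miR-181c-5p: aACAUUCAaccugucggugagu
miR-181d-5p: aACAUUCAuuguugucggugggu
miR-181c-3p: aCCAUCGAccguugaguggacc
Downregulated members from the imprinted Dlk1-Dio3 region differ in their seeds.
miR-493-5p: uUGUACAUgguaggcuuucauu
miR-1193-3p: uAGGUCACccguuuuacuaucc
miR-329-3p: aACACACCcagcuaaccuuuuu
miR-337-5p: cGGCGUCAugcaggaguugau
miR-434-3p: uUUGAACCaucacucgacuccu
miR-3543: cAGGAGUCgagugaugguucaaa
miR-539-5p: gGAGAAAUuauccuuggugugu
miR-3576: aCACACCAaggauaauuucucc
In the last 4 lines miR-3543 pairs with miR-434-3p, and miR-3576 with miR-539-5p, as reverse complements. From the X chromosome come a downregulated pair with 1 seed and a miRNA known from testis.
miR-500-3p: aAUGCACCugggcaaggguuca
miR-501-3p: aAUGCACCcgggcaaggauuugg
miR-471-3p: uGAAAGGUgccauacuaugu
The upregulated members include miRNAs of the nervous system, miR-31 with its partner of the opposite strand, miR-139-5p and the liver miRNA miR-122.
miR-346: uGUCUGCCugagugccugccucu
miR-9a-5p: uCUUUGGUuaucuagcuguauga
miR-9b-3p: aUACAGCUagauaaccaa
miR-129-1-3p: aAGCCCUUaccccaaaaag
miR-129-2-3p: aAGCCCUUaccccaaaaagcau
miR-31a-5p: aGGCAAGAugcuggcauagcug
miR-31b: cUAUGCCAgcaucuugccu
miR-139-5p: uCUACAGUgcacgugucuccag
miR-122-5p: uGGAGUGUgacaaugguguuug

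The libraries held 34940346 to 74881378 counts in young AL and 47142870 to 83110905 in old CR. Entries of the miR-1 family took 71.8% to 81.2% of the counts in young AL and 74.5% to 83.2% in old CR. Levels are given as CPM, the counts scaled to a common library total in the usual way and corrected by the TMM factors of the fit, which lay between 0.675 and 1.31. As defining miRNAs of the labelled tissue, miR-1-3p reached a median of 96911 CPM in young AL, against 105458 CPM in old CR, and miR-133a-3p 15891 and 17181 CPM. Of 15 striated muscle miRNAs tested, 0 were called in edgeR's quasi-likelihood test, 0 had an unadjusted p under 0.05, and DESeq2 called 0. Their log2 fold changes (old CR over young AL) ran from -1.27 to 0.42 with a median of 0.18, or -0.01 when levels were scaled by library totals. The largest decrease among them, that of the slow-fibre miRNA miR-208b-3p, was -1.27 ± 0.68 (SE) with an adjusted p of 0.262. Its 6 young AL libraries ranged from 4.96 to 58.9 CPM and overlapped with those of old CR at 2.36 to 15.7 CPM.

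A member was called when its adjusted p was at most 0.05 and its fold change at least 1.5. In old CR 64 of the 603 known miRNAs were called, 27 upregulated and 37 downregulated, while 9.32% of all 730 entries tested were called, 4.11% up and 5.21% down. Because some entries share their counts in every library, the 64 called miRNAs represent 59 sets of counts. Young AL and old CR libraries were fully separated for 40 known miRNAs, beside 5.75% of all entries tested. The median log2 fold change of all 603 members was 0.06 with TMM and -0.06 with library totals, and with the latter 14 were upregulated and 31 downregulated. DESeq2 called 94 known miRNAs, 41 up and 53 down, and 14.9% of all entries. The plot of fold change against level shows the called members at low and middle levels and 0 calls among the most abundant miRNAs.

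**Figure D1:**
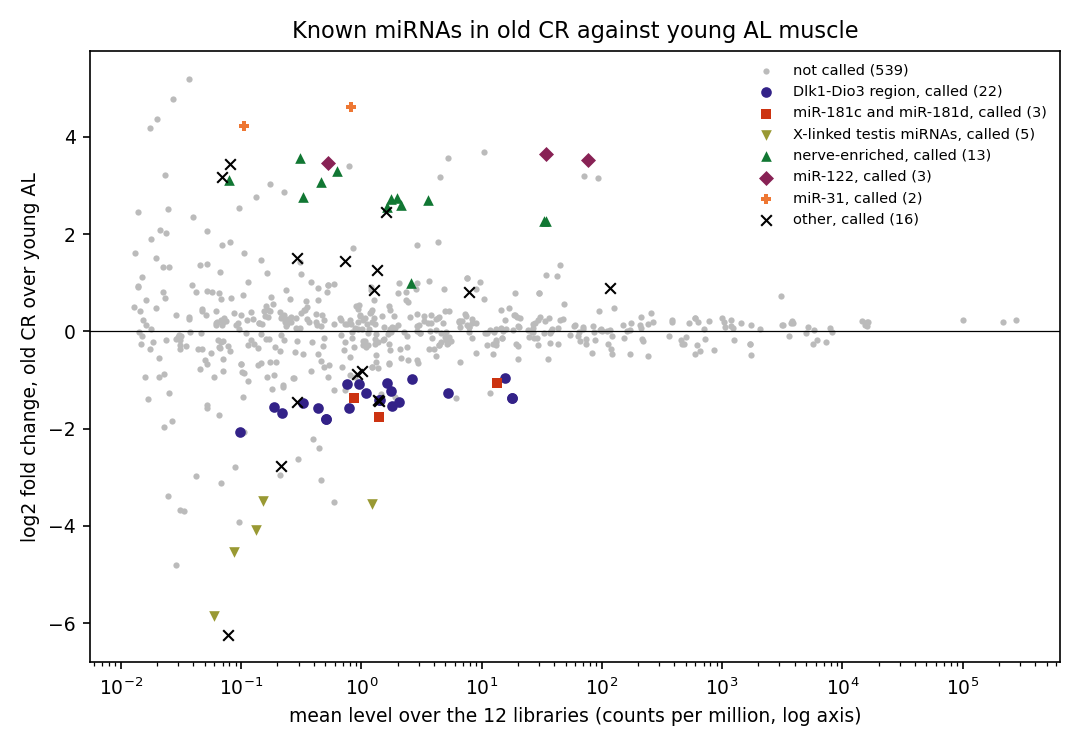
Log2 fold change of old CR over young AL (vertical axis) against the mean level over the 12 libraries in CPM (horizontal log axis) for the 603 known miRNAs, with grey points for miRNAs that were not called and coloured points for the 64 that were, by group. Called members of the Dlk1-Dio3 region, miR-181c/d and the X-linked testis miRNAs lie below 0, and nerve-enriched miRNAs, miR-122 and miR-31 lie above 0; values of members with 0 counts in a group depend on the prior count.

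Most downregulated miRNAs, but a minority of the upregulated ones, lay in clusters of miRNA genes. Clusters were taken as RefSeq miRNA genes with at most 10 kb between neighbours, and 68 clusters held a tested member. Of these, 12 held a called member, 11 held at least 2, and 0 held calls in both directions. The clusters Mir3597-1 to Mir9-1, Mir3597-2 to Mir9-2 and Mir3597-3 to Mir9-3 share their miR-9 entries, so the same calls count in each. Among the 64 called miRNAs 43 belonged to a cluster, 33 of the 37 downregulated but 10 of the 27 upregulated ones, beside 335 of the 603 tested. MiR-127-5p, without a matching RefSeq gene, was counted outside clusters. The 10 upregulated ones were entries of miR-9, miR-219, miR-31 and miR-122, being arms of a hairpin or entries of its opposite strand. Both arms were tested for 202 hairpins, and the arms had the same sign in 149 of them. In 26 hairpins at least 1 arm was called, with the same sign in 23 and both arms called in 7, never in opposite directions. Of the seed families with at least 2 tested members, 3 had at least 2 called members (miR-181c-5p and miR-181d-5p, miR-500-3p and miR-501-3p, and the 2 miR-129-3p entries). The levels of these miR-129-3p entries were equal in every old CR library.

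The largest group of downregulated miRNAs came from the Dlk1-Dio3 region, an imprinted stretch whose miRNAs are read from the maternal chromosome. Of 95 entries on the list of this region 81 were tested, of which 22 were downregulated and 0 upregulated. This is 27.2% of those tested, beside 5.21% of all entries. In all, 72 of the 81 had a negative log2 fold change, the median was -0.78, and 16 had groups that did not overlap, beside 5.75% of all entries tested. The 22 called entries represent 19 sets of counts, and DESeq2 called 29. In RefSeq the region falls into neighbouring clusters. In Mir770 to Mir136, 7 of 20 tested entries were downregulated (median -1.05), and in Mir379 to Mir410, 15 of 59 (median -0.74).

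The summed level of the cluster Mir379 to Mir410, with shared counts taken once, was 90.1 to 127.2 CPM in young AL (median 100.2) and 50.2 to 82.7 CPM in old CR (median 62.6). All 6 old CR libraries lay below every young AL library. For Mir770 to Mir136 the sums were 113 to 173 CPM in young AL (median 129.1) and 64.2 to 145.8 CPM in old CR (median 84.7), and old CR 17 was the only old CR library inside the young AL range.

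MiR-493-5p, from the cluster Mir770 to Mir136, was at 2.17 to 3.98 CPM in young AL (median 3.05) and at 0.764 to 1.31 CPM in old CR (median 1.15). The groups did not overlap, and its log2 fold change was -1.44 ± 0.20 (SE; adjusted p = 0.00312). MiR-337-5p, of the next hairpin, fell from a median of 7.60 CPM (4.82 to 10.3) to 3.10 CPM (2.37 to 4.26), a log2 fold change of -1.27 ± 0.22 (adjusted p = 0.00472). The other arm, miR-337-3p, was scarce, with 49 counts in young AL and 14 in old CR, and fell by 2.06 ± 0.52 on the log2 scale (adjusted p = 0.0279), a call that held in 6 of the 12 fits without 1 library. MiR-3544, which overlaps miR-337-5p on the opposite strand, fell by 1.68 ± 0.43 (adjusted p = 0.0298), a call that held in 5 of these 12 fits and was lost with library totals.

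MiR-431, miR-433, miR-127, miR-434 and miR-136 of this cluster are read antisense to Rtl1, a gene derived from a retrotransposon. Among them miR-434-3p had the highest level of the downregulated entries, at 15.3 to 32.6 CPM in young AL (median 26.2) and 5.83 to 12.3 CPM in old CR (median 11.0). Every old CR library was below every young AL library, with a log2 fold change of -1.37 ± 0.23 (adjusted p = 0.00377). MiR-431 fell by 1.09 ± 0.21 on the log2 scale (adjusted p = 0.00854), from 0.675 to 1.43 CPM down to 0.392 to 0.6254 CPM. MiR-127-3p, the most abundant miRNA of the region, was not called: its level was 55.5 to 116 CPM in young AL and 41.8 to 108 CPM in old CR, with a log2 fold change of -0.27 ± 0.27 (adjusted p = 0.616). Its other arm miR-127-5p fell by 1.06 ± 0.30 (adjusted p = 0.0448) and was still called in 2 of the 12 fits without 1 library.

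In the cluster Mir379 to Mir410, miR-1193-3p was at 0.936 to 1.46 CPM in young AL (median 1.14) and 0.286 to 0.570 CPM in old CR (median 0.341). It fell by 1.57 ± 0.23 on the log2 scale (adjusted p = 0.00312). MiR-539-5p was at 0.468 to 1.12 CPM in young AL (median 0.782) and 0.144 to 0.346 CPM in old CR (median 0.215). This was the largest decrease of the cluster, -1.81 ± 0.27 (adjusted p = 0.00312). MiR-329-3p dropped from a median of 2.69 CPM (1.61 to 3.74) to 0.985 CPM (0.601 to 1.14), by -1.52 ± 0.26 on the log2 scale (adjusted p = 0.00377). MiR-411-5p, the most abundant called member of the cluster, was at 15.6 to 27.5 CPM in young AL and 8.12 to 13.7 CPM in old CR, a log2 fold change of -0.96 ± 0.20 (adjusted p = 0.0109). For these 4 miRNAs the groups did not overlap.

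The other downregulated entries of the cluster were miR-299a-5p, miR-369-5p, miR-369-3p, miR-376c-3p, miR-381-3p, miR-409a-5p, miR-410-3p, miR-494-3p, miR-6331, miR-3576 and miR-3578, with log2 fold changes of -0.97 to -1.79. The first gene of the cluster gave the abundant miR-379-5p, which did not reach the fold threshold, at -0.56 ± 0.15 (adjusted p = 0.0314). Entries with a positive log2 fold change were few, and 0 of them were called. The highest was the scarce miR-323-5p at 1.61 (2 counts in young AL and 8 in old CR), and near the start of the region miR-770-5p stood at 0.93 and miR-770-3p at 0.86. In the plot by gene order the called entries spread over both clusters from miR-493 to miR-410.

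**Figure D2:**
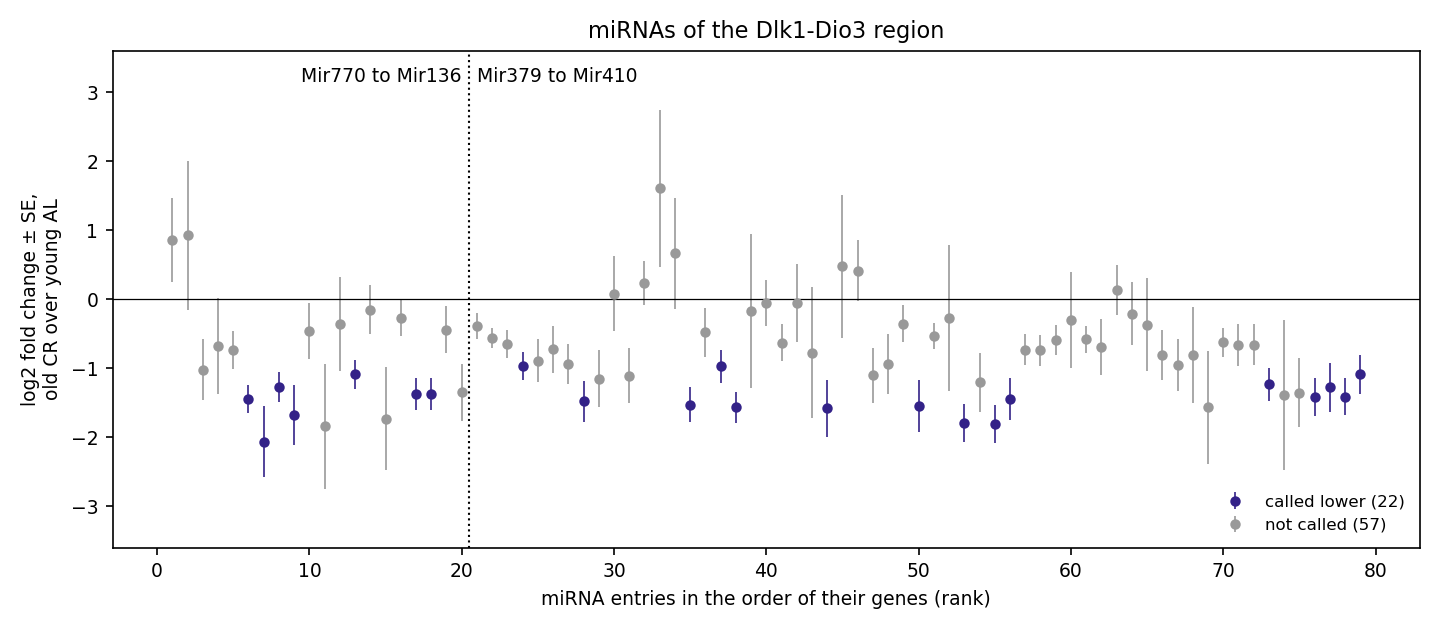
Log2 fold change ± SE of old CR over young AL (vertical axis) for the 79 tested entries of the clusters Mir770 to Mir136 and Mir379 to Mir410, placed by the rank of their genes (horizontal axis), with downregulated entries in dark blue and those not called in grey. Most points lie below 0 in both clusters, and the 22 called entries run from rank 6 to rank 79; miR-127-5p, called on the list, has no RefSeq gene in these clusters and is not drawn, and miR-6331 is drawn but not on the list.

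Of the 22 called entries of the list, 14 were also called when each of the 12 libraries was left out in turn. Without old CR 17 and old CR 18, 17 of the 22 kept their call, and 21 entries of the list were downregulated in all. Without young AL 4 and young AL 5, 15 of the 22 kept their call, and the total was also 15. Young AL 4 was the highest young AL library for 11 of the 22 called entries, and old CR 17 the highest old CR library for 10.

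Several called entries are read from opposite strands of 1 place. Of 28 pairs of known miRNAs with at least 100 counts whose counts agreed within 10% or 2 counts in all 18 libraries, 25 had sequences for both, and 23 of these were reverse complements over runs of 18 to 22 bases. In 5 such pairs both entries were called: miR-539-5p with miR-3576, miR-434-3p with miR-3543, miR-369-5p with miR-3578, miR-501-3p with miR-3560, and miR-9a-5p with miR-9b-3p. MiR-434-3p held 8667 counts in young AL and 3675 in old CR, and miR-3543 held 8613 and 3655. Because no source used here states the strand setting of the counting, reads of such partners cannot be told apart, and they are treated as 1 set of counts. In other overlapping pairs the counts differed, as for miR-31a-5p with 575 and miR-31b with 74 counts, whose sequences pair over 19 bases.

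All 3 tested miRNAs of the cluster Mir181c to Mir181d were downregulated, while 0 of the 6 tested miR-181a and miR-181b entries were called by edgeR or DESeq2 or had an unadjusted p under 0.05. MiR-181 miRNAs are known from lymphocyte development and are encoded at several places, of which miR-181c and miR-181d form 1. MiR-181c-5p was at 1.58 to 3.62 CPM in young AL (median 1.78) and 0.392 to 0.880 CPM in old CR (median 0.605), a log2 fold change of -1.77 ± 0.28 (adjusted p = 0.00377). The other arm, miR-181c-3p, had the lowest p of all members and fell from 1.13 to 1.52 CPM in young AL (median 1.21) to 0.374 to 0.562 CPM in old CR (median 0.510), by 1.37 ± 0.17 on the log2 scale (adjusted p = 0.00227). MiR-181d-5p was at 14.1 to 23.7 CPM (median 17.3) and 6.24 to 11.1 CPM (median 8.72), a log2 fold change of -1.07 ± 0.17 (adjusted p = 0.00377). None of the 3 had overlapping groups, and all 3 were called in each of the 27 alternative fits.

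MiR-181a-5p, at 255 to 505 CPM in young AL and 308 to 407 CPM in old CR, had a log2 fold change of -0.09 ± 0.15 (adjusted p = 0.806). For miR-181b-5p the levels were 76.9 to 138.2 CPM (median 117) and 78.2 to 136.8 CPM (median 113), and the log2 fold change 0.01 ± 0.18 (adjusted p = 0.986). MiR-181d-5p differs from miR-181b-5p by 1 of 23 bases, and all 4 mature -5p strands share the seed shown above.

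The ratio of counts inside each library describes the difference within the family; as these ratios were formed after the levels were known, no test is given. MiR-181c-5p amounted to 0.351% to 1.42% of miR-181a-5p in young AL (median 0.481%) and to 0.0963% to 0.255% in old CR (median 0.190%). MiR-181d-5p amounted to 12.2% to 30.9% of miR-181b-5p in young AL (median 15.2%) and to 5.79% to 11.0% in old CR (median 8.20%). Neither ratio overlapped between the groups. The mean log2 ratio differed between old CR and young AL by -1.70 for the first pair and by -1.07 for the second.

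Downregulated miRNAs of the X chromosome fell into separate clusters. Of 83 tested entries whose RefSeq genes lie on the X chromosome, 8 were downregulated (9.64%, beside 5.21% of all entries) and 2 upregulated (2.41%, beside 4.11%), and the median log2 fold change was -0.08. The cluster Mir471 to Mir465 belongs to a fast-evolving group of miRNA genes that is known from the testis. All 13 of its tested entries had a negative log2 fold change, with a median of -3.50 (-3.38 with an entry at 0 counts set to its bound), and 4 were downregulated.

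These miRNAs were scarce in muscle. The summed level of the cluster was 0.162 to 10.4 CPM in young AL (median 5.46) and 0.109 to 1.29 CPM in old CR (median 0.327). The young AL libraries themselves differed widely, with young AL 4 and young AL 5 highest. Young AL 1 (0.162 CPM) and young AL 6 (0.981 CPM) lay within the range of old CR. MiR-471-3p had 41 counts in young AL, at 0.0361 to 0.201 CPM, and 0 counts in each old CR library, which makes it at least 2.44-fold lower when 3 counts are allowed per library (adjusted p = 0.00647). MiR-871-5p had 56 counts in young AL and 2 in old CR, a ratio of 30.9 (95% exact interval 8.16 to 261, counting error only; adjusted p = 0.0171). MiR-741-3p, the most abundant called entry, was at 0.0541 to 4.22 CPM in young AL (median 2.38) and 0.0181 to 0.544 CPM in old CR (median 0.134), a log2 fold change of -3.55 ± 0.93 (adjusted p = 0.0315). MiR-463-3p and, from the neighbouring cluster Mir743a to Mir883, miR-743b-5p were also downregulated, by -4.09 ± 1.12 and -3.49 ± 1.001 (adjusted p of 0.0360 and 0.0458).

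How many of these miRNAs were called depended on single libraries. On a list of 22 tested X-linked testis miRNAs, which includes the abundant miR-872-5p, which was not called (log2 fold change 0.07), 5 were downregulated with all libraries. The count was 12 with DESeq2, 14 with known miRNAs only, 9 in a single fit over 3 groups, 8 with upper-quartile scaling and 3 with library totals. Without young AL 4 and young AL 5 the count was 1, and without old CR 17 and old CR 18 it was 2. With 1 library left out, it rose to 10 without young AL 1 and 9 without young AL 6. It was 2 without young AL 2, 3, 4 or 5 and without old CR 13, 14, 15 or 18, 3 without old CR 16, and 6 without old CR 17. MiR-202-5p, known from gonads and outside these clusters, had 51 counts in young AL and 0 in old CR, at least 3.18-fold lower (adjusted p = 0.0376). It was counted unevenly in young AL, from 0 to 0.447 CPM, and its call held in only 1 of the 12 fits without 1 library.

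Another X-linked cluster, Mir532 to Mir500, lies inside the chloride channel gene Clcn5. Of 9 tested entries 3 were downregulated (33.3%, beside 5.21% of all entries), from 2 sets of counts, and 8 had a negative log2 fold change (median -0.58). Its summed level was 39.7 to 61.3 CPM in young AL (median 53.8) and 30.6 to 38.9 CPM in old CR (median 34.6), without overlap. MiR-500-3p was at 0.914 to 1.72 CPM in young AL and 0.666 to 0.833 CPM in old CR, a log2 fold change of -0.81 ± 0.18 (adjusted p = 0.0173). MiR-501-3p, with the same seed, fell by 1.41 ± 0.32 on the log2 scale (adjusted p = 0.0180), from 1.005 to 3.18 CPM down to 0.396 to 1.14 CPM. MiR-532-5p, the most abundant strand, at 32.2 to 53.1 CPM in young AL and 25.997 to 33.1 CPM in old CR, had an adjusted p of 0.0298 but a log2 fold change of -0.58, just short of the fold threshold. MiR-501-3p amounted to 1.89% to 8.33% of miR-532-5p in young AL and to 1.40% to 4.19% in old CR, with overlap. MiR-500-3p, miR-501-3p and miR-3560 were not called when levels were scaled by library totals.

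Of the 27 upregulated miRNAs, 13 were on a list of miRNAs known as abundant in neurons or glia. The list had 32 tested entries, of which 27 had a positive log2 fold change (median 1.33), 13 were upregulated (40.6%, beside 4.11% of all entries) and 0 downregulated. By agreement of counts within 10% or 2 counts in all 18 libraries, the 13 represent 12 sets of counts. They come only from miR-9, miR-124, miR-129, miR-219, miR-346 and miR-598, several through both arms or the opposite strand. This rule leaves apart the miR-129-3p entries, and miR-219a-2-3p with miR-219b, although their sequences overlap, so 12 is not a count of separate results. In bulk RNA, more cells of a type and more RNA per cell cannot be told apart. The most abundant entry of the list, miR-128-3p, was not upregulated (-0.46 ± 0.22, adjusted p = 0.203). The summed level of the whole list was not higher in old CR, at 575 to 1030 CPM in young AL (median 748) and 553 to 809 CPM in old CR (median 740). Without miR-128 it was 42.4 to 123 CPM in young AL (median 76.8) and 87.4 to 336 CPM in old CR (median 214.1), with 4 old CR libraries above all young AL libraries.

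MiR-9, a miRNA of neurons and their progenitors, was upregulated through both arms and through the entries of the opposite strand, miR-9b-3p and miR-9b-5p. MiR-9a-5p was at 6.44 to 19.3 CPM in young AL (median 11.4) and 17.2 to 133.2 CPM in old CR (median 41.4), a log2 fold change of 2.27 ± 0.48 (adjusted p = 0.0133). In 5 of 6 old CR libraries it was above all young AL libraries. MiR-9a-3p rose from 0.260 to 1.52 CPM to 1.41 to 16.3 CPM, by 2.70 ± 0.61 on the log2 scale (adjusted p = 0.0173), and miR-9b-5p by 3.07 ± 0.56 (adjusted p = 0.00647). MiR-124-3p, the most typical miRNA of neurons, was at 0.159 to 0.902 CPM in young AL (median 0.572) and 0.891 to 8.82 CPM in old CR (median 2.90). Its log2 fold change was 2.74 ± 0.61 (adjusted p = 0.0173), and 5 old CR libraries were above all young AL libraries. Its other arm miR-124-5p had 5 counts in young AL and 54 in old CR (adjusted p = 0.0354), a call that held in 4 of the 12 fits without 1 library.

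MiR-129-5p was at 0.366 to 0.849 CPM in young AL (median 0.562) and 1.22 to 7.80 CPM in old CR (median 2.67), a log2 fold change of 2.61 ± 0.49 (adjusted p = 0.00685). The entries of its -3p arms rose as well, by 3.56 ± 0.72 for miR-129-1-3p and 2.76 ± 0.73 for miR-129-2-3p. The call of miR-129-1-3p held in every fit that tested it, and that of miR-129-2-3p in 5 of the 12 fits without 1 library and not with library totals. The first of these sequences is contained in the second. Their levels were equal in every old CR library and differed only in young AL 1 and young AL 2. Their rises are therefore not separate results. MiR-219a-2-3p, from a gene active in oligodendrocytes, was at 0.202 to 0.902 CPM in young AL (median 0.408) and 0.837 to 10.8 CPM in old CR (median 1.51), a log2 fold change of 2.73 ± 0.68 (adjusted p = 0.0279), and miR-219b of the opposite strand rose by 2.55 ± 0.67 (adjusted p = 0.0314), a call that held in 6 of the 12 fits without 1 library. The main strand of this family, miR-219a-5p, had only 10 counts in young AL and 16 in old CR and was not called.

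MiR-346 had the lowest p among upregulated miRNAs. It was at 0.0670 to 0.197 CPM in young AL (median 0.0951) and 0.208 to 1.98 CPM in old CR (median 1.11), a log2 fold change of 3.30 ± 0.49 (adjusted p = 0.00312). The groups did not overlap, although old CR 18, at 0.208 CPM, lay close to young AL. MiR-598-3p changed less but evenly, from 1.23 to 2.398 CPM in young AL (median 1.72) to 2.92 to 3.95 CPM in old CR (median 3.46), a log2 fold change of 0.99 ± 0.18 (adjusted p = 0.00620). Both were called without each of the 12 libraries in turn.

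Old CR 17 was the highest old CR library for 11 of the 13 called nerve-enriched entries, and old CR 15 the lowest for 8. Without old CR 17 and old CR 18, 7 of the list were upregulated and the median was 0.97. These 7 were miR-346, miR-598-3p, miR-9b-5p, miR-129-5p, miR-129-1-3p, miR-9b-3p and miR-9a-5p, and they were also those called without young AL 4 and young AL 5. DESeq2 called 16 entries of the list, the 13 called by edgeR and miR-383-5p, miR-212-3p and miR-212-5p. Other entries of the list with unadjusted p under 0.05 that edgeR did not call were miR-383-5p (1.73), miR-212-3p (1.47), miR-212-5p (1.19), miR-218a-5p (1.14), miR-218b (1.15) and miR-153-3p (2.54), all with positive log2 fold changes.

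**Figure D3:**
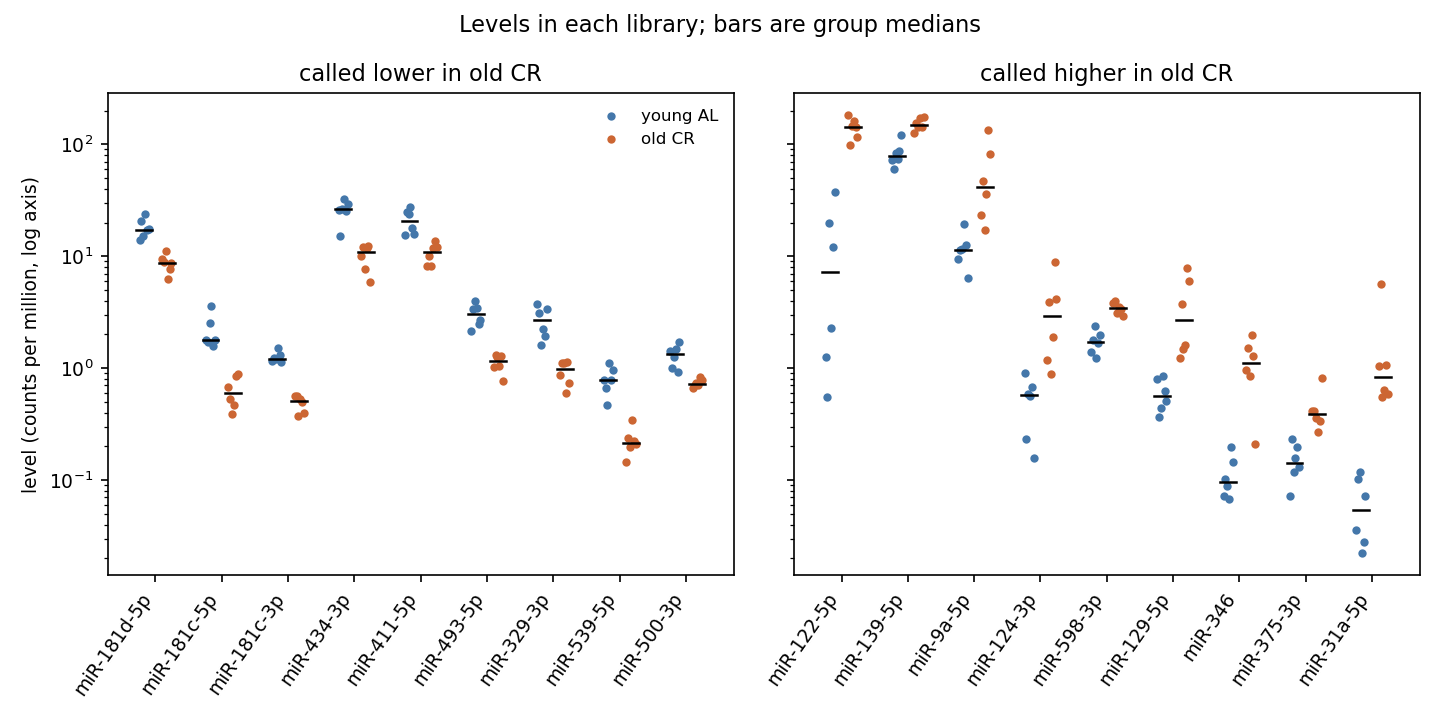
Level in CPM (vertical log axis) in each of the 6 young AL (blue) and 6 old CR (orange) libraries for 9 downregulated (left) and 9 upregulated (right) miRNAs, with bars at the group medians. All 9 miRNAs on the left have groups that do not overlap, while on the right miR-9a-5p and miR-124-3p overlap and old CR 14 stands above the other libraries for miR-31a-5p at 5.603 CPM.

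The liver miRNA miR-122 was upregulated through all 3 of its entries. MiR-122-5p, by far the most abundant miRNA of hepatocytes, was at 0.556 to 37.5 CPM in young AL (median 7.202) and 99.2 to 181.4 CPM in old CR (median 144.3). All old CR libraries were above all young AL libraries, and the log2 fold change was 3.53 ± 0.92 (adjusted p = 0.0329). MiR-122-3p rose by 3.47 ± 0.88 (adjusted p = 0.0296) and miR-122b by 3.65 ± 0.94 (adjusted p = 0.0314). In old CR both miR-122b and miR-122-5p were highest in old CR 13 (83.0 and 181.4 CPM) and lowest in old CR 14 (44.2 and 99.2 CPM). Whether these entries share reads was not tested, and their rises are not taken as separate results. The young AL libraries spread widely for miR-122-5p, with the highest level in young AL 6 and the lowest in young AL 2. None of the 3 was called without young AL 4 or without young AL 5, although the median log2 fold change was then 3.32 and 3.53, and 0 were called with library totals or without old CR 17 and old CR 18. With 1 other library left out, 1 was called without young AL 3 and without old CR 13, 14, 15, 16 or 18, and 2 without old CR 17. Of the entries of miR-194 and miR-192, which liver and gut have in common, 0 of 4 were called by edgeR or DESeq2, and 1 had an unadjusted p under 0.05. This miRNA, miR-192-5p, was at 24.9 to 49.8 CPM in young AL and 35.2 to 76.2 CPM in old CR (log2 fold change 0.57 ± 0.21, adjusted p = 0.109). No entry of miR-215, a relative on the same list, was tested.

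MiR-31 is known from keratinocytes and other epithelia and, in muscle, as a repressor of dystrophin. MiR-31a-5p was nearly absent in young AL, at 0.0223 to 0.117 CPM (21 counts in all), and was at 0.552 to 5.603 CPM in old CR (554 counts, median 0.838). The groups did not overlap, and the log2 fold change was 4.62 ± 0.75 (adjusted p = 0.00377). MiR-31b, of the opposite strand, had 3 counts in young AL and 71 in old CR, a ratio of 21.45 (95% exact interval 7.05 to 106.5, counting error only). MiR-31a-3p had 0 counts in young AL and 14 in old CR, within the limit that 3 counts per library allow.

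Old CR 14 had the highest level of miR-31a-5p and stood apart in epithelial miRNAs. All 13 tested epithelial miRNAs (the miR-200 family, miR-141, miR-203 and miR-205) had a positive log2 fold change, with a median of 2.87, but 0 were called by edgeR, 10 had an unadjusted p under 0.05, and DESeq2 called 4. Their summed level was 29.5 to 93.4 CPM in young AL and 47.6 to 1917 CPM in old CR, where old CR 14 held the 1917 CPM and the others at most 187 CPM. MiR-203a-3p reached 818 CPM in old CR 14, against a median of 39.5 CPM in old CR and 18.3 CPM in young AL. Without old CR 14 the median of the list was 1.34, and miR-31a-5p was still called, with log2 fold changes of at least 3.61 in all fits. The part of epithelial miRNAs in the miR-31 result was not tested otherwise.

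MiR-139-5p, from an intron of Pde2a, had the highest median of the called miRNAs in both groups, with 28703 counts in young AL and 58784 in old CR. It was at 59.7 to 120 CPM in young AL (median 78.1) and 127.3 to 177 CPM in old CR (median 149). The groups did not overlap, and the log2 fold change was 0.89 ± 0.17 (adjusted p = 0.00685). The other arm, miR-139-3p, had a log2 fold change of 0.99 ± 0.32, which edgeR did not call (adjusted p = 0.0796) and DESeq2 did (adjusted p = 0.0153). The call of miR-139-5p held without each library in turn and was lost with library totals (adjusted p = 0.126).

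Of the endocrine and neuronal miRNAs miR-375 and miR-7, 2 of 4 tested entries were upregulated. MiR-375-3p, known from pancreatic islets, was at 0.0722 to 0.234 CPM in young AL and 0.271 to 0.811 CPM in old CR, without overlap, a log2 fold change of 1.51 ± 0.35 (adjusted p = 0.0212). Its call held without each library in turn but was lost with library totals, in a single fit over 3 groups, without old CR 17 and old CR 18, and without young AL 4 and young AL 5. MiR-7b rose by 1.27 ± 0.35 (adjusted p = 0.0360) but was called in 2 of the 12 fits without 1 library. Its relative with the same seed, miR-7a-5p, was far more abundant, at medians of 202.7 CPM in young AL, against 312 CPM in old CR, and was not called (0.38 ± 0.19, adjusted p = 0.219).

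The remaining upregulated miRNAs shared no family. MiR-92b-3p, which has the seed of miR-92a and miR-25, was at 0.274 to 0.512 CPM in young AL and 0.526 to 2.64 CPM in old CR (1.45 ± 0.40, adjusted p = 0.0376). Of the 20 tested entries of the miR-17 to miR-92 cluster and its paralogues it was the only one called. Its call held in only 4 of the 12 fits without 1 library. MiR-224-5p, from an intron of Gabre, rose from 4.36 to 7.51 CPM to 6.07 to 13.1 CPM (0.81 ± 0.19, adjusted p = 0.0222), a call lost only without young AL 3 when 1 library was left out. MiR-330-3p (0.86 ± 0.23), miR-1298 (2.45 ± 0.62), miR-344a-3p (3.44 ± 0.92) and miR-3099 (3.19 ± 0.82) were also upregulated, the last 2 from only 4 counts each in young AL. Their calls held in 3, 6, 5 and 8 of the 12 fits without 1 library. Not assigned to a RefSeq cluster, the downregulated miRNAs were miR-592, from an intron of the glutamate receptor gene Grm8 (-0.89 ± 0.22, adjusted p = 0.0266), miR-6215 (-2.78 ± 0.76, adjusted p = 0.0368), miR-202-5p and miR-127-5p. The last had no matching RefSeq gene, while its other arm miR-127-3p lies in Mir770 to Mir136. MiR-592 lost its call without young AL 3, young AL 4 or old CR 14, and that of miR-6215 held in only 3 of the 12 fits without 1 library.

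**Figure D4:**
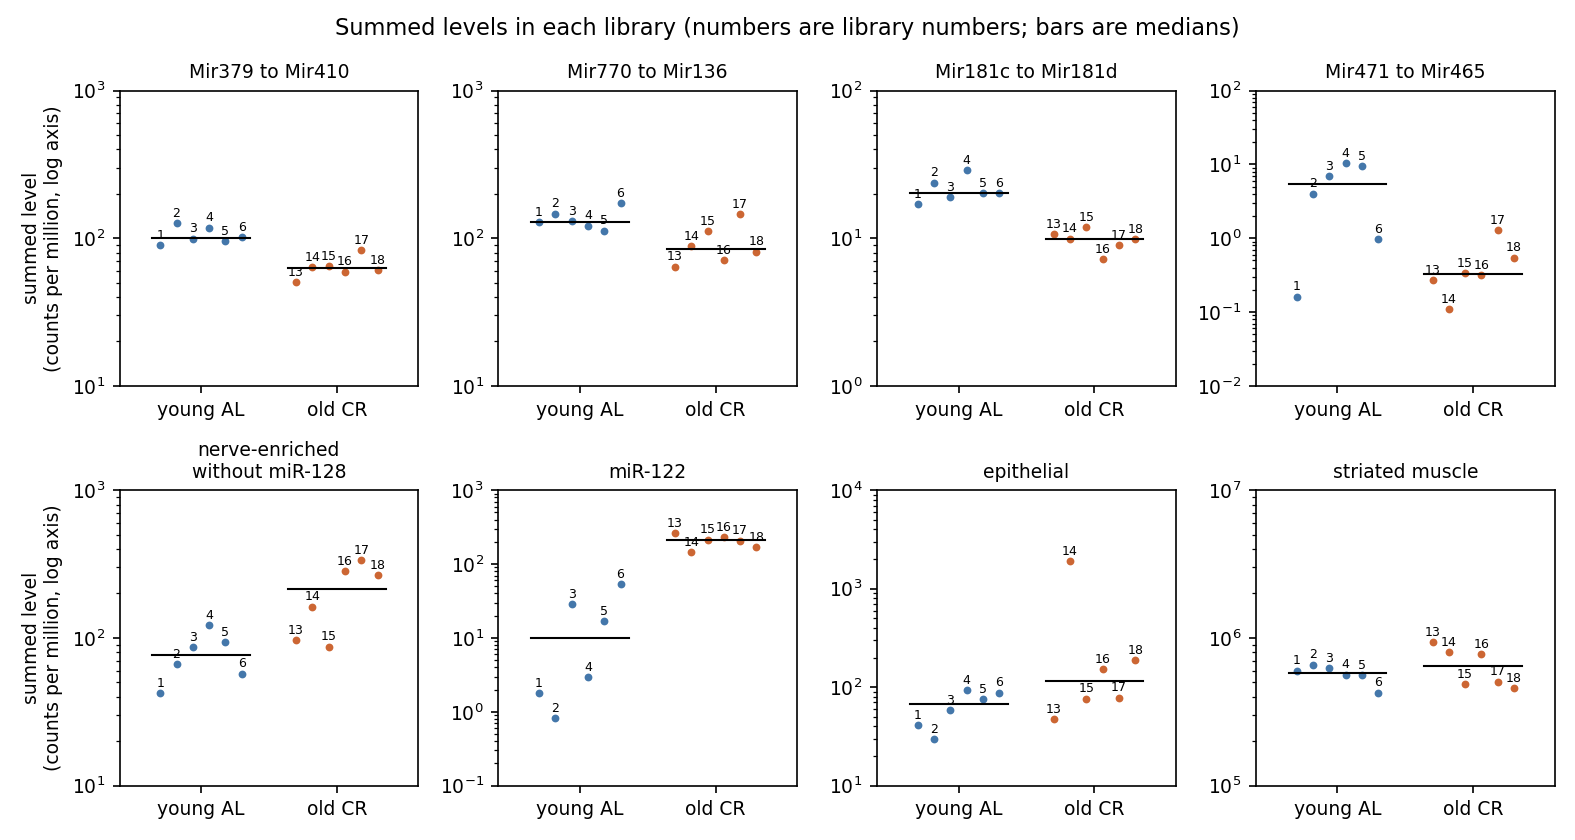
Summed level in CPM (vertical log axis, with its own range in each panel) in each library of young AL (blue) and old CR (orange), numbered by replicate, with bars at the medians, for 4 clusters and 4 lists. The nerve-enriched list is drawn without miR-128, its most abundant miRNA. The clusters Mir379 to Mir410 and Mir181c to Mir181d and the miR-122 entries have groups that do not overlap, young AL 1 and young AL 6 lie low for Mir471 to Mir465, and old CR 14 stands out for epithelial miRNAs at 1917 CPM.

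The large families of muscle miRNAs outside these groups held 0 calls by edgeR with all libraries. Of 21 tested let-7 and miR-98 entries 0 were called by edgeR or DESeq2 and 0 had an unadjusted p under 0.05, with log2 fold changes of -0.40 to 0.28, and let-7f-5p, their most abundant entry, was at 0.18 ± 0.20. The same was true of 11 miR-30 entries (median 0.00), with miR-30a-5p at 0.06 ± 0.22. Of 6 miR-29 entries, known for repressing collagens, 0 were called by edgeR and 1 by DESeq2, namely miR-29b-3p (0.78, edgeR adjusted p = 0.0512), with 1 unadjusted p under 0.05 and miR-29a-3p at 0.24 ± 0.13. The families of miR-23, miR-27 and miR-24 (11 tested, median -0.22), of miR-99, miR-100 and miR-125 (11, median -0.12), of miR-10 and miR-196 (10, median 0.06), of miR-15 and miR-16 (12, median -0.19), of miR-221 and miR-222 (4, median 0.28) and of miR-148 and miR-152 (6, median 0.09) had 0 calls by edgeR or DESeq2, and 1 entry each of the miR-99 and miR-15 groups had an unadjusted p under 0.05. For 8 metabolic miRNAs (median 0.12) there were 0 calls by either tool and 0 unadjusted p under 0.05, and among them miR-378a-3p, encoded inside Ppargc1b, had medians of 16040 CPM in young AL, against 15844 CPM in old CR. Library totals in place of TMM shift all these values downwards, so their signs give no direction.

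Markers of other cell types that muscle holds gave 0 calls by edgeR or DESeq2 and 0 unadjusted p under 0.05. These were 7 vascular entries (miR-126, miR-143 and miR-145; median -0.18), 3 fibroblast entries (miR-199a and miR-214; median 0.19), 8 leukocyte entries (median 0.48) and 3 erythroid entries (median -0.27). Their summed levels were 9534 to 17714 CPM in young AL and 8693 to 15348 CPM in old CR for the vascular list, and 121.9 to 168 CPM and 105 to 235 CPM for the leukocyte list. The erythroid list summed to 3.21 to 9.86 CPM and 3.40 to 9.25 CPM, and the fibroblast list to 993 to 1653 CPM and 1110 to 2223 CPM. For miR-146 and miR-21, which respond to inflammation, 0 of 6 were called by either tool or had an unadjusted p under 0.05 (median 0.19), and miR-21-5p was at medians of 854 CPM in young AL, against 1064 CPM in old CR. In the sensory-organ cluster of miR-183, miR-96 and miR-182 all 4 tested entries had positive values (median 0.79), with 0 called by edgeR, 1 by DESeq2 and 3 at an unadjusted p under 0.05. The 4 entries of the Igf2/H19 miRNAs miR-483 and miR-675 (median 0.87) gave 0 calls by either tool and 1 unadjusted p under 0.05. A list of 7 entries held miR-34, a family induced by p53, and miR-449a-5p, and gave 0 calls by edgeR. DESeq2 called 1, miR-449a-5p (-2.40, edgeR adjusted p = 0.0608), which was also the 1 entry with an unadjusted p under 0.05. The median of this list was -0.94, and 0.22 without young AL 4 and young AL 5.

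The same members were looked up against old AL, which had the age of old CR, in a comparison that uses the same old CR libraries as the main one. Of the 64 called miRNAs 63 could be tested in old CR against old AL, and 1 was called there, miR-139-5p, beside 0.272% of all entries tested. Its log2 fold change in old CR over old AL was 0.81 ± 0.14 (adjusted p = 0.0377), and that of old AL over young AL was 0.09 ± 0.19 (adjusted p = 0.873). Among all known miRNAs the count called was also 1, while 63 had an unadjusted p under 0.05 and DESeq2 called 8. With 1 library left out this count stayed at 1 without old AL 9, old CR 13 or old CR 15 and was 0 without any other of the 12 old AL and old CR libraries. Of the 63 called miRNAs tested against old AL, 19 had an unadjusted p under 0.05, 11 higher and 8 lower in old CR. As these miRNAs were chosen with the same old CR libraries, this share cannot be set against that of all known miRNAs.

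In old AL against young AL, a comparison that shares its young AL libraries with the main one, 14 of the 64 were called, 4 upregulated and 10 downregulated, beside 3.28% of all entries tested. For miR-181c-5p the log2 fold change over young AL was -1.77 in old CR and -1.81 in old AL, and that of old CR over old AL was 0.04 ± 0.39. For miR-181d-5p the values were -1.07, -1.11 and 0.04 ± 0.24. For miR-434-3p they were -1.37, -1.22 and -0.13 ± 0.24, and for miR-539-5p -1.81, -2.22 and 0.43 ± 0.32. For these 4 the old CR and old AL levels differed by less than 1.5 SE. MiR-493-5p stood at -1.44 in old CR and -0.76 in old AL, with -0.65 ± 0.37 between them (unadjusted p = 0.105). MiR-1193-3p stood at -1.57 and -0.59, with -0.97 ± 0.34 between them (unadjusted p = 0.0144, adjusted p = 0.392).

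Among upregulated miRNAs, miR-122-5p was at 3.53 in old CR and 4.36 in old AL relative to young AL, with -0.81 ± 0.56 between them. MiR-31a-5p was at 4.62 and 3.56, with 1.09 ± 0.65 between them, and miR-375-3p at 1.51 and 2.64, with -1.15 ± 0.60 between them. None of these 3 differences passed the test (adjusted p of 0.577, 0.503 and 0.437). Of the other upregulated miRNAs, miR-9a-5p was at 2.27 in old CR and 0.77 in old AL relative to young AL, with 1.51 ± 0.50 between them (unadjusted p = 0.0108, adjusted p = 0.392). MiR-129-5p was at 2.61 and 0.81, with 1.79 ± 0.53 (unadjusted p = 0.00557, adjusted p = 0.392), and miR-1298 at 2.45 and 0.30, with 2.11 ± 0.61 (unadjusted p = 0.00458, adjusted p = 0.392).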

How the data were processed

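Small RNA from gastrocnemius muscle was sequenced by the authors, who removed adapters (Cutadapt), trimmed by quality (Sickle), dropped reads shorter than 12 nt, identified known and predicted miRNAs with miRDeep2, and deposited raw counts per miRNA and library. The submitters' processing notes name Cutadapt 1.2.1, Bowtie2 2.4.0 and the build Rnor_6.0. The strand setting and the treatment of reads with several matches were not given in the sources used here, and counts of related or opposite entries may share reads. No column was left unused.

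The 12 libraries of young AL and old CR were normalized with TMM and fitted with edgeR 4.0.16 (quasi-likelihood test, robust, two-sided) in R 4.3.3, over the 730 known and predicted entries with at least 10 counts. Benjamini-Hochberg adjustment covered all 730 entries, and calls needed both an adjusted p no higher than 0.05 and a change of 1.5-fold or more. The SE is the log2 fold change divided by the root of the F statistic. The procedure was tested on simulated counts. DESeq2 1.42.0, named by the authors, was an alternative. The others were other scalings, filters and entries tested, a single fit over 3 groups, and libraries left out. Old CR and old AL were compared in the same way.

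Known miRNAs were grouped in 31 lists by name and in clusters of RefSeq GRCr8, whose coordinates are not given because the builds differ. The members, the lists and the rule for naming miRNAs were chosen with earlier results of these data known. The rule took the 10 lowest p in each direction, called entries of lists, clusters and seed families, the most abundant entry of a list, muscle and miR-181 miRNAs, and entries with shared counts. Called miRNAs outside it, and uncalled ones at unadjusted p under 0.05, were named after their values were seen. The labels describe 1 sample per rat, and p-values measure the spread between these samples. Reads carry no molecular identifiers and are not independent molecules, so intervals and limits reflect counting error alone.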

Additional observations from a re-analysis of the deposited data

Results flagged for a closer look

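In 6 of the values tested (4.23%), 1 library lay far from the other libraries of its group by Dixon's test. Chance flags about 5% of such values. MiR-346 was at 0.208 CPM in old CR 18, the lowest of its group, and miR-31a-5p at 5.603 CPM in old CR 14, the highest. In young AL 2 miR-434-3p and miR-3543, which share their counts, were both at 15.3 CPM, the lowest of their group, and miR-330-3p was at 0.581 CPM in young AL 4. The summed level of the epithelial miRNAs was 1917 CPM in old CR 14.

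MiR-139-5p was the 1 known miRNA called between the diets at 28 months, with a log2 fold change of 0.81 in old CR over old AL. This call was lost with library totals and in most of the fits without 1 library.

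Outside the known miRNAs, 4 predicted candidates were called in old CR against young AL. Candidate 7 (-0.97) shares its counts with miR-494-3p, and candidate 12 (0.89) with miR-139-5p. Candidate 49 (fitted value 7.16) had 0 counts in young AL and 109 in 5 of the 6 old CR libraries, at least 5.25-fold higher. Candidate 66 (fitted value 15.69) had 0 counts in young AL and 42408 in 5 of the 6 old CR libraries, at least 1948-fold higher. The fitted values of the last 2 depend on the prior count and are no bounds; the bounds allow 3 counts per library. What these candidates are was not tested.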

How the results depend on the processing

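No called miRNA changed its direction in any fit. Of the 64 calls, 36 held without each library in turn and 24 in every fit. With all libraries 64 known miRNAs were called, 27 up and 37 down. The total was 99 with DESeq2 without its filters, 40 without old CR 17 and 18 and 34 without young AL 4 and 5 (both left out after the data were seen), and 42 to 64 without each library in turn, lowest without young AL 3. The upregulated count was 14 with library totals, 41 with DESeq2, 47 in a single fit over 3 groups, 45 with DESeq2 without its filters, 16 without young AL 1 and 2, 11 without old CR 17 and 18, 11 without young AL 4 and 5, and 15 to 28 without each library in turn (15 without young AL 3, 17 without young AL 5 and 17 without old CR 18). The downregulated count was 56 with known miRNAs only and 23 without young AL 4 and 5. The count in old CR against old AL, 1, was 0 with library totals, 8 with DESeq2 and 0 to 1 without each library in turn. The cause of these shifts was not tested. No paired analysis was possible because the groups share no replicate numbers. Counts of a few reads per library, as for the X-linked testis miRNAs, limit what could be called.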
